A study of Glycine max with 102 samples.

Results

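Leaf transcript levels were compared between 14 elite parents of the soyNAM mapping population and 30 milestone cultivars of soybean (Glycine max), 44 of the 102 libraries of the series. These libraries were selected on 1 gene, LHY2b (Glyma.03G261800), a MYB repressor of the circadian clock whose transcript peaks around dawn. A library was kept if LHY2b stood between 150 and 330 FPKM, that is, a measure of fragments scaled to transcript length and library size, as deposited by the authors. This range kept 14 of the 18 elite and 30 of the 61 milestone libraries, and it is called the LHY2b window. The series covers 41 soyNAM parents, which are the founders of a nested association mapping population, and 61 milestone cultivars, which mark steps in the history of the crop. Every library came from leaves at the V2 stage, when the plants were 18 days old, with no treatment named in the labels. Each accession gave 1 library, so n counts accessions, and p-values set differences against the variation among accessions. The elite class, high-yielding breeding lines and the hub parent of the population, was taken from the public family numbers of soyNAM, which do not stand in the labels. The other soyNAM parents, LG and PI lines, enter a second comparison below, and their classes were taken from the same numbers. The hub parent itself fell outside the window. The milestone columns carry numbers that do not show which cultivar each is.

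The circadian clock of a leaf runs as a loop in which LHY proteins hold evening genes down around dawn and evening proteins in turn hold LHY down. In soybean, a short-day plant, the clock feeds into flowering through the legume repressor E1, which keeps the florigen genes FT2a and FT5a low in long days. The evening protein J relieves that block, and the phytochrome A receptors E3 and E4 strengthen it. A leaf sample caught at another hour of the day therefore differs in many transcripts, which is the reason for setting libraries of like LHY2b level side by side.

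LHY2b levels, which chose the libraries, are given as a description only. In the window LHY2b ran from 189 FPKM (library NAM22) over a median of 260 to 326 FPKM (NAM04) in elite parents, and from 150 FPKM (library 54) over a median of 281 to 327 FPKM (library 33) in milestone cultivars. The means were 262 ± 43.2 FPKM in elite parents (SD, n = 14) and 277 ± 40.8 FPKM in milestone cultivars (SD, n = 30). The 4 elite libraries outside the window were all below it, the nearest at 49.7 FPKM (NAM11). The 31 milestone libraries outside it were all above it, the nearest at 333 FPKM (library 44) and the farthest at 531 FPKM. The window thus takes the high end of one class and the low end of the other.

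The match in LHY2b did not extend to the other dawn genes. All 3 other LHY genes rose in elite parents, where 33.7% of all genes tested were called higher. LHY1a (Glyma.16G017400) ran from 364 over a median of 461 to 576 FPKM in elite parents, against 225, 354 and 419 FPKM in milestone cultivars. The ranges overlapped, and the difference on the log2(FPKM + 1) scale was 0.38 (SE 0.07; limma, Benjamini-Hochberg adjusted p = 5.11e-06). LHY1b (Glyma.07G048500) stood between 111 and 320 FPKM with a median of 194 in elite parents and between 66.1 and 177 with a median of 138 in milestone cultivars. LHY2a (Glyma.19G260900) had medians of 114 FPKM in elite parents and 95 FPKM in milestone cultivars. Their log2 differences were 0.46 (SE 0.11; limma adjusted p = 1.71e-04) and 0.32 (SE 0.09; limma adjusted p = 0.00182). When all 18 elite and 61 milestone libraries were fitted without the window, which shares these 44 libraries, the log2 differences were -0.81 for LHY1a, -0.60 for LHY1b and -0.80 for LHY2a. With a window of 100 to 400 FPKM the LHY2a difference was 0.18 and no longer passed (limma adjusted p = 0.0623). Equal LHY2b therefore does not mean equal levels of the dawn genes as a group, and near-identical copies such as the LHY pairs can share reads.

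**Figure D1:**
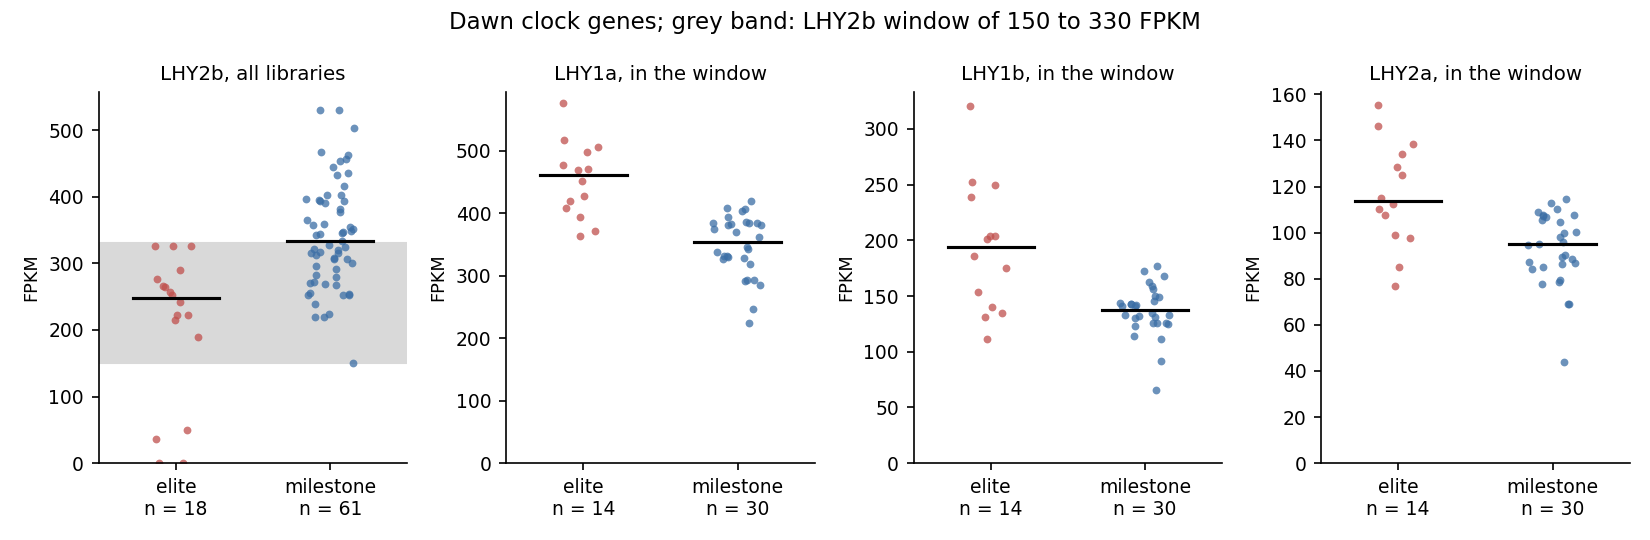
FPKM of the 4 dawn clock genes, 1 point per library and a line at the group median, with elite parents left of milestone cultivars. The first panel shows LHY2b in all 18 elite and 61 milestone libraries with the window shaded, and the others show LHY1a, LHY1b and LHY2a in the 14 and 30 libraries kept, where the elite medians of 461, 194 and 114 FPKM lie above the milestone medians of 354, 138 and 95 FPKM.

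Across the genome most genes differed between the classes even at matched LHY2b. Of 29953 genes whose mean over the 44 libraries reached 1 FPKM, 68.9% had a limma adjusted p under 0.05. A share of 33.7% was higher in elite parents (10090 genes) and 35.3% was lower (10560 genes). Over all genes tested the median size of the difference was 0.33 on the log2 scale, and 1335 higher and 2255 lower genes passed a fold of 2. The groups did not overlap at all for 1033 higher genes (3.45% of those tested) and 1760 lower genes (5.88%). The fit of all libraries without the window called 68.3% of 30232 genes. The labels give no growth or sequencing batch, so class and any batch cannot be told apart, and this holds for every difference below. In whole leaves fewer cells of a type and less RNA per cell cannot be told apart either.

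The libraries also differed as wholes. Elite libraries had 27489 to 28399 genes at 1 FPKM or more (mean 27898 ± 269, SD, n = 14), and milestone libraries had 28425 to 30188 (29401 ± 379, n = 30), with no overlap. Summed FPKM averaged 729366 ± 49264 in elite and 680939 ± 71317 in milestone libraries, and the 50 highest genes held 21.7% ± 1.38 of it in elite and 20.2% ± 2.34 in milestone libraries. Permutation tests gave p = 1e-05 for the gene number, the smallest they can give, p = 0.026 for summed FPKM and p = 0.0311 for the 50 highest genes, adjusted over these 3 tests to 3e-05, 0.0311 and 0.0311. Relative depth, estimated from steps among low FPKM values, ran from 0.901 over a median of 1.16 to 1.42 in elite libraries and from 0.442 over 0.893 to 1.30 in milestone libraries, relative to the median library, with overlap. With relative depth as a covariate, chosen after the data were seen, 19651 genes were called, against 20650 without it. The median SD per gene on the log2 scale was 0.20 among elite parents and 0.28 among milestone cultivars. Among the 30, milestone libraries 54 and 60 stood apart, with median Spearman correlations of 0.860 and 0.882 to the rest of their class, while elite libraries ran from 0.940 to 0.955 and the next milestone library stood at 0.909. Library 54 also held the lowest milestone level of each of the 4 LHY genes. Without both libraries 21136 genes were called, against 20650 with them. Rubisco small subunit and activase transcripts, which mark green leaf tissue, summed over 6 genes to 24276 to 40926 FPKM in elite and 16695 to 49279 FPKM in milestone libraries. Summed over 5 genes each, seed storage transcripts reached at most 1.07 and 0.889 FPKM, and nodule transcripts at most 3.24 and 2.19 FPKM, in elite and milestone libraries.

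Gene names below are published soybean locus assignments, since the deposited table holds gene IDs alone. Apart from LHY2b, the lists held 117 genes, of which 79 passed the filter, 36 of them higher in elite parents, 24 lower and 19 not called. The median log2 difference of all genes tested was -0.01. A gene can pass the filter through the class in which it is high, so the counts describe the genes that passed and not the lists as wholes.

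Evening genes of the clock were mostly higher in elite parents. Of 14 genes on the list of evening and day clock genes 12 passed the filter, of which 8 rose, 2 fell and 2 were not called, against 33.7% higher and 35.3% lower over all genes tested, with a median log2 difference of 0.67. The filter bears on these counts. LUX2 passed through the elite class (milestone mean 0.796 FPKM) and TOC1a through the milestone class (elite mean 0.760 FPKM). J (Glyma.04G050200), the soybean ELF3 that represses E1, ranged from 3.69 over a median of 5.39 to 6.87 FPKM in elite parents, against 1.84, 2.93 and 4.52 FPKM in milestone cultivars. The log2 difference was 0.72 (SE 0.08; limma adjusted p = 1.38e-11) with partly overlapping ranges. Its paralogues ELF3b-1 (Glyma.14G091900) and ELF3b-2 (Glyma.17G231600) rose by 0.69 and 0.66 on the log2 scale, and the lowest elite value of ELF3b-1, 2.64 FPKM, was above the highest milestone value of 2.44 FPKM. LUX2 (Glyma.11G136600), the DNA-binding partner of J in the evening complex, stood at 2.27 to 7.94 FPKM with a median of 3.14 in elite parents and at 0.22 to 1.44 FPKM with a median of 0.812 in milestone cultivars. The classes did not overlap, and the log2 difference was 1.38 (SE 0.10; limma adjusted p = 2.39e-16). Its partner copy LUX1 (Glyma.12G060200) did not pass the filter, at medians of 0.136 and 0.0806 FPKM in elite and milestone libraries.

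The GIGANTEA genes, which couple the clock to flowering, followed the same direction. E2 (Glyma.10G221500), a maturity locus, had 28.1, 35.6 and 50.8 FPKM as lowest, median and highest elite values, against 9.27, 21.3 and 33.3 FPKM in milestone cultivars. GIb (Glyma.20G170000) had 15.5, 23.6 and 37.6 FPKM in elite parents, against 2.13, 10.1 and 17.1 FPKM in milestone cultivars. Both overlapped in part between the classes, and the log2 differences were 0.86 (SE 0.12; limma adjusted p = 4.28e-08) and 1.20 (SE 0.13; limma adjusted p = 1.34e-11).

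The pseudo-response regulators, repressors that act in sequence through the day, moved in different directions. Among the 4 genes of the TOC1 type, the one with the highest FPKM, Glyma.05G025000 (TOC1c), stood at 14.3 to 19.4 FPKM with a median of 18.2 in elite parents and at 7.06 to 14.05 FPKM with a median of 10.3 in milestone cultivars. Its log2 difference was 0.77 (SE 0.06; limma adjusted p = 3.31e-15) without overlap. TOC1a (Glyma.06G196200) fell to a median of 0.764 FPKM in elite parents, against 1.38 FPKM in milestone cultivars, and TOC1b (Glyma.04G166300) to 3.34 against 4.69 FPKM, with log2 differences of -0.46 and -0.37 (limma adjusted p = 1.48e-07 and 1.55e-04). TOC1d (Glyma.17G102200) was not called, at -0.12 (limma adjusted p = 0.161), but passed with relative depth as a covariate, at -0.21 (limma adjusted p = 0.0329). Without the window it passed the other way, at 0.40 (limma adjusted p = 0.0144), while TOC1a and TOC1b stood at 0.013 and 0.061 and were not called. PRR3a (Glyma.U034500) rose by 0.24 (limma adjusted p = 0.00931). PRR3b (Glyma.12G073900), a maturity gene, had medians of 59.2 FPKM in elite parents and 57.4 FPKM in milestone cultivars and was not called (0.16; limma adjusted p = 0.179). With LHY2b as a covariate PRR3b did pass, at 0.25 (limma adjusted p = 0.00453).

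Both florigen genes that passed the filter were higher in elite parents, and so were the CONSTANS-like pair. Of 18 genes on the flowering list 7 passed, of which 5 rose, 1 fell and 1 was not called, against 33.7% higher and 35.3% lower over all genes tested, with a median of 1.36. These florigen genes passed through the elite class, with milestone means of 0.659 FPKM (FT2a) and 0.449 FPKM (FT5a), so the filter bears on this count. FT2a (Glyma.16G150700), a mobile signal made in the leaf that promotes flowering, stood at 2.33, 6.29 and 10.9 FPKM as lowest, median and highest in elite parents, against 0, 0.142 and 4.7 FPKM in milestone cultivars. It reached 1 FPKM in 14 of 14 elite and 8 of 30 milestone libraries, and it was listed at 0 in 12 milestone libraries. The log2 difference was 2.29 (SE 0.22; limma adjusted p = 7.48e-13). FT5a (Glyma.16G044100), its partner in floral induction, had a median of 2.45 FPKM in elite parents (0.331 to 5.43), against 0.0682 FPKM in milestone cultivars (0 to 2.18). It reached 1 FPKM in 12 of 14 elite and 6 of 30 milestone libraries, with a log2 difference of 1.36 (SE 0.20; limma adjusted p = 1.02e-07). The classes overlapped at both genes: 2 of 30 milestone libraries lay above the lowest elite value of FT2a, and 11 of 30 above that of FT5a.

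COL1a (Glyma.08G255200) and COL1b (Glyma.18G278100) are the soybean genes closest to CONSTANS, the day-length sensor of Arabidopsis. COL1a ranged from 85.5 over a median of 121 to 165 FPKM in elite parents, against 14.2, 41.5 and 74.1 FPKM in milestone cultivars. COL1b had 142, 177 and 243 FPKM in elite parents, against 24.9, 64.2 and 112 FPKM in milestone cultivars. Neither gene overlapped between the classes, and the log2 differences were 1.57 (SE 0.11; limma adjusted p = 2.44e-16) and 1.47 (SE 0.11; limma adjusted p = 1.48e-15). In the fit without the window the differences were 0.72 and 0.60. COL2a and COL2b were under the filter, with no library of either class above 0.366 FPKM.

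The 2 copies of SOC1, a MADS-box gene that gathers flowering signals, moved in opposite directions. SOC1a (Glyma.18G224500) stood at 6.13 to 20.5 FPKM with a median of 13.5 in elite parents and at 21.3 to 49.96 FPKM with a median of 30.2 in milestone cultivars, without overlap. SOC1b (Glyma.09G266200) had medians of 11.6 FPKM in elite parents (4.61 to 19.9) and 7.03 FPKM in milestone cultivars (2.99 to 11.7). Their log2 differences were -1.21 (SE 0.11; limma adjusted p = 3.45e-13) and 0.66 (SE 0.14; limma adjusted p = 3.79e-05). Dt2 (Glyma.18G273600), which ends growth of the stem tip, was not called at 0.10 (limma adjusted p = 0.44). The repressor E1 (Glyma.06G207800) was low in both classes, with medians of 0.211 FPKM in elite parents and 0.352 FPKM in milestone cultivars, and was not tested. FUL2a, a MADS-box gene of the FRUITFULL group, reached 1 FPKM in 0 of 14 elite and 8 of 30 milestone libraries. FT2b, a florigen paralogue, was listed at 0 in all 30 milestone libraries and reached 0.923 FPKM in elite parents. Other FT genes went the other way. FT4 had medians of 0.0578 FPKM in elite parents and 0.432 FPKM in milestone cultivars. FT1a and FT3a reached at most 0.0628 and 0 FPKM in elite parents, against 0.584 and 0.235 FPKM in milestone cultivars. FUL2a and all of these FT genes were under the filter and were not tested.

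**Figure D2:**
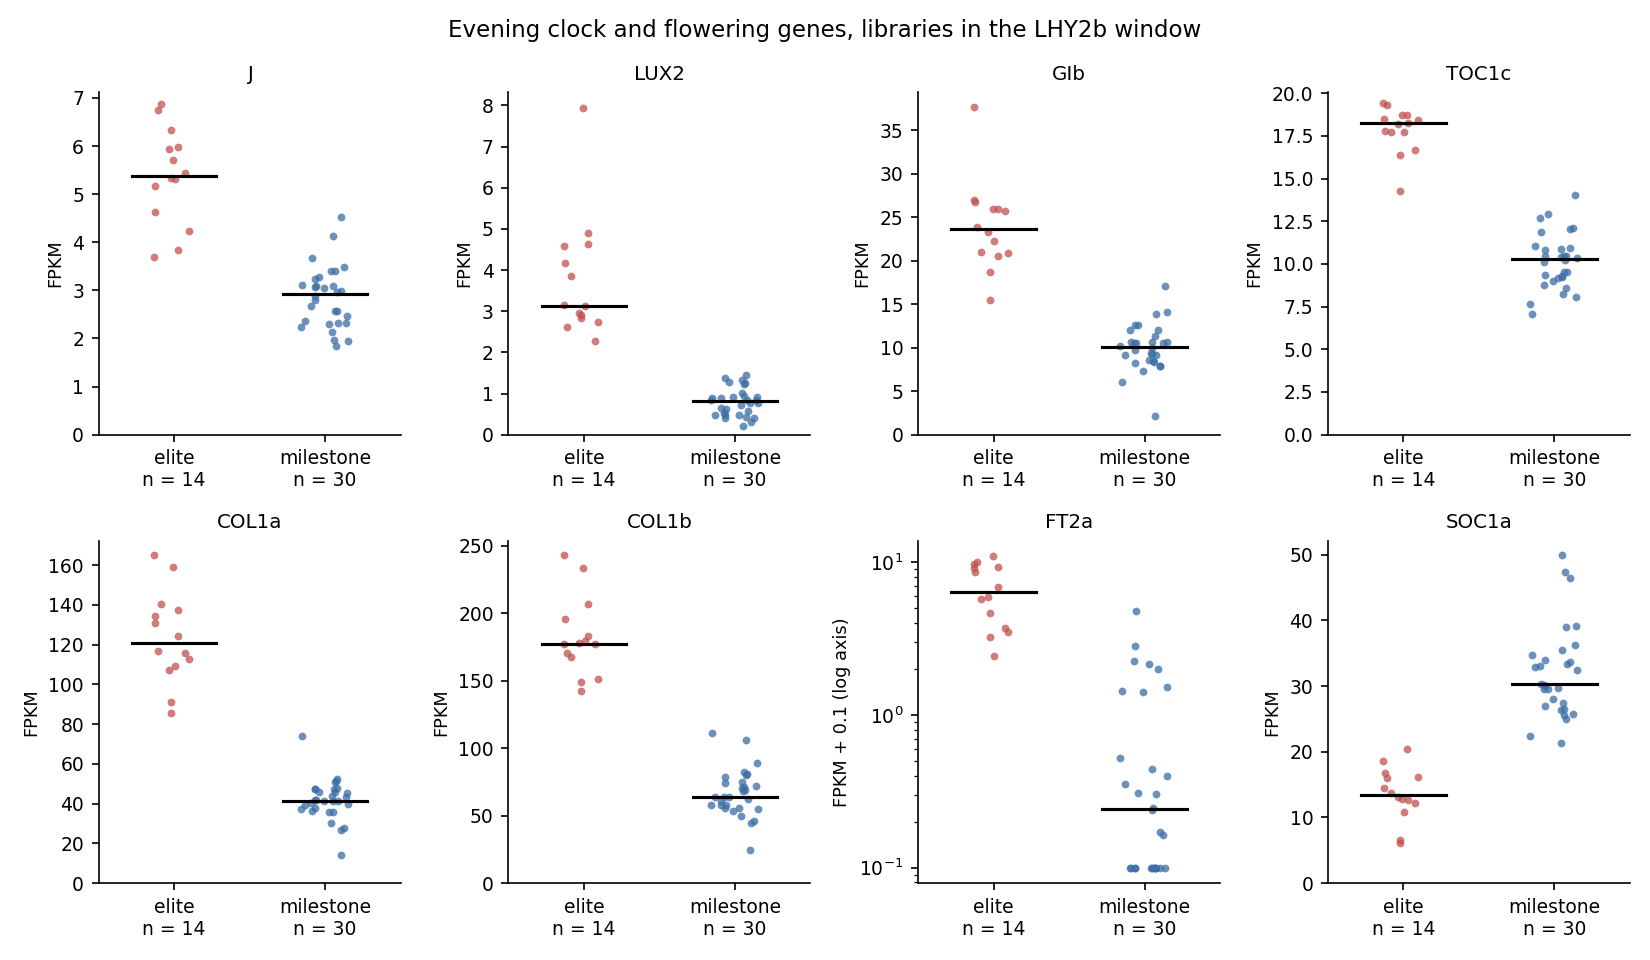
FPKM of 4 evening clock genes (J, LUX2, GIb, TOC1c) and 4 flowering genes (COL1a, COL1b, FT2a, SOC1a) in the LHY2b window, 1 point per library and a line at the median, with 14 elite parents left of 30 milestone cultivars. FT2a is drawn on a log axis after adding 0.1 FPKM, so libraries listed at 0 lie at the bottom. LUX2, TOC1c, COL1a and COL1b lie higher and SOC1a lower in every elite library than in any milestone library.

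Light receptor genes were mostly higher in elite parents. All 12 photoreceptor genes passed the filter, 10 rose in elite parents, 0 fell and 2 were not called, and 7 did not overlap between the classes, with a median log2 difference of 0.58. Over all genes tested 33.7% were called higher and 3.45% were higher without overlap. PHYA1 (Glyma.10G141400), a phytochrome A, had 13.4, 15.6 and 17.4 FPKM in elite parents, against 6.00, 8.35 and 11.1 FPKM in milestone cultivars, a difference of 0.80 (SE 0.05; limma adjusted p = 1.4e-17). E4 (Glyma.20G090000), the phytochrome A of a maturity locus, had 30.97, 36.6 and 45.4 FPKM in elite parents, against 16.5, 22.7 and 29.6 FPKM in milestone cultivars, a difference of 0.65 (SE 0.06; limma adjusted p = 6.85e-14). Neither gene overlapped. E3 (Glyma.19G224200), the other phytochrome A of a maturity locus, was not called: its medians were 2.94 FPKM in elite parents and 2.73 FPKM in milestone cultivars (log2 difference 0.02; limma adjusted p = 0.842).

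The phytochrome B genes rose as well, PHYB1 (Glyma.09G035500) by 0.42 and PHYB2 (Glyma.15G140000) by 0.62 on the log2 scale, without overlap. The cryptochromes, which sense blue light, spread further. CRY1a (Glyma.04G101500) had 23.9, 28.1 and 32.04 FPKM in elite parents, against 8.05, 13.7 and 19.6 FPKM in milestone cultivars. CRY1b (Glyma.06G103200) had 35.97, 46.2 and 56.8 FPKM in elite parents, against 14.97, 23.9 and 34.5 FPKM in milestone cultivars. Both rose by 0.96 (limma adjusted p = 2.76e-15 and 4.52e-14), CRY2a (Glyma.10G180600) by 0.82 and CRY2b (Glyma.20G209900) by 0.54. CRY1c and CRY2c rose by 0.29 and 0.26, and CRY1d was not called at 0.05 (limma adjusted p = 0.562). Without the window CRY1c and CRY1d stood at -0.16 and -0.60. Milestone library 54 held the lowest milestone value of 10 of these 12 genes, among them E4, PHYA1, PHYB1 and CRY1a, and the counts of 10 higher and 0 lower were unchanged without it.

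**Figure D3:**
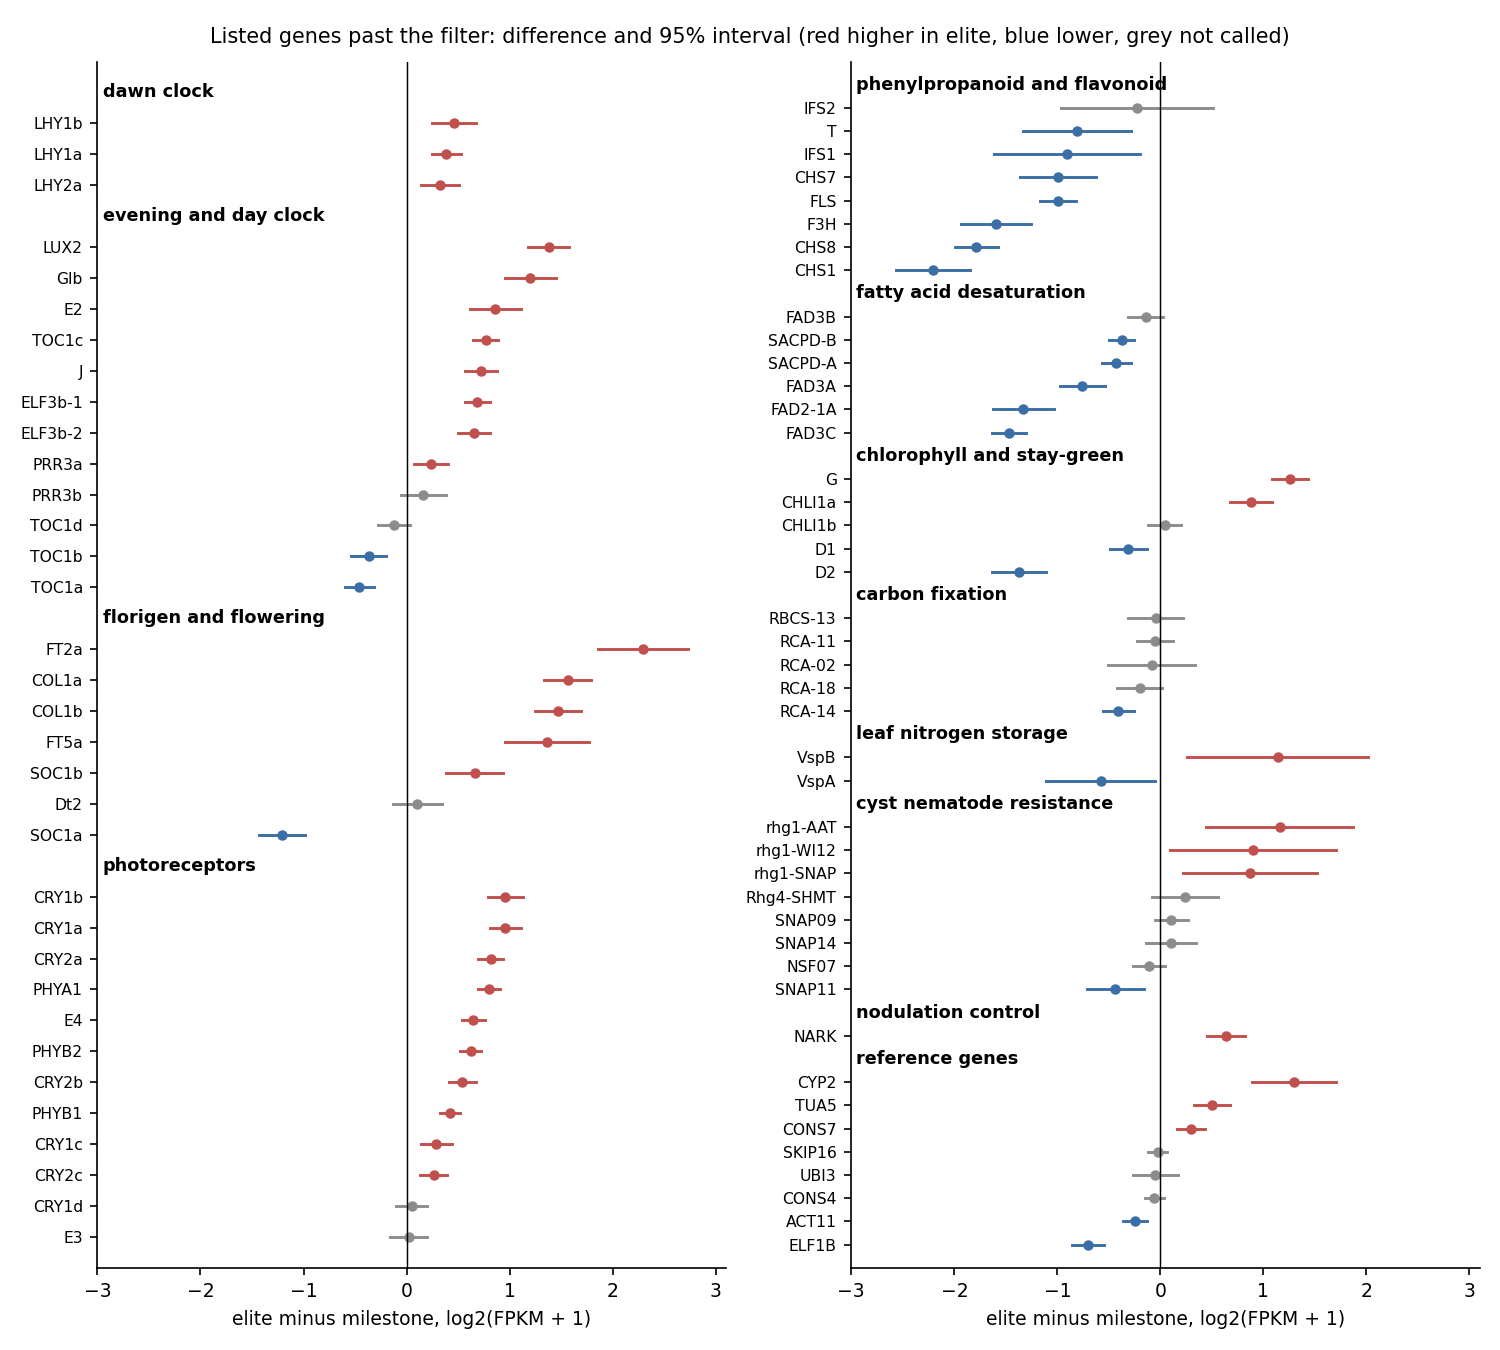
Difference between elite parents and milestone cultivars on the log2(FPKM + 1) scale for 77 listed genes that passed the filter, with 95% intervals, grouped by list; red is higher in elite parents, blue lower and grey not called. P1 and RBCS-19 lie outside the axis and were left out. The intervals of the photoreceptors lie right of 0 or span it, and those of the flavonoid and desaturase genes lie left of 0 or span it.

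Most flavonoid genes that could be tested were lower in elite parents. Flavonoids are phenolic pigments, sunscreens and signals made from chalcone by a chain of enzymes. Of 18 genes on the list 8 passed the filter, of which 0 rose, 7 fell and 1 was not called, where 35.3% of all genes tested were called lower, with a median of -0.99. CHS1 passed through the milestone class, with an elite mean of 0.612 FPKM, so the filter bears on this count. The other 10 were too low to be tested, and of these the chalcone synthase CHS2 (Glyma.05G153200) had medians of 1.08 FPKM in elite parents and 0.688 FPKM in milestone cultivars. CHS8 (Glyma.11G011500), a chalcone synthase, which opens the pathway, stood at 3.16, 4.07 and 5.31 FPKM in elite parents, against 10.7, 15.4 and 34.5 FPKM in milestone cultivars. CHS1 (Glyma.08G109400), another chalcone synthase, had 0.245, 0.574 and 1.09 FPKM in elite parents, against 1.58, 7.09 and 15.1 FPKM in milestone cultivars. Neither overlapped, and the log2 differences were -1.79 (SE 0.10; limma adjusted p = 1.08e-19) and -2.21 (SE 0.18; limma adjusted p = 8.12e-15). CHS7 (Glyma.01G228700) fell by 0.99 with overlapping ranges, and in the fit without the window its difference was -0.26 and did not pass. The other chalcone synthase genes of the list were under the filter; since family members can share reads, a split between copies is uncertain.

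Further along the pathway, F3H (Glyma.02G048400), flavanone 3-hydroxylase, had 14.8, 41.5 and 68.4 FPKM in elite parents, against 50.9, 133 and 196 FPKM in milestone cultivars. FLS (Glyma.13G082300), flavonol synthase, had 52.7, 71.7 and 85.8 FPKM in elite parents, against 96.9, 143 and 272 FPKM in milestone cultivars. F3H overlapped in part and FLS did not, and the log2 differences were -1.60 (SE 0.17; limma adjusted p = 1.98e-11) and -0.995 (SE 0.09; limma adjusted p = 5.25e-14). The flavonoid 3′-hydroxylase T (Glyma.06G202300), a pubescence and seed coat colour locus, had medians of 4.74 FPKM in elite parents and 5.66 FPKM in milestone cultivars, whose values reached 26.8 FPKM (log2 difference -0.81; limma adjusted p = 0.00551). The call of T was lost in the LHY2b window of 200 to 300 FPKM (-0.67; limma adjusted p = 0.0588). The isoflavone synthase genes were less clear. IFS1 (Glyma.07G202300) had medians of 22.1 FPKM in elite parents and 31.7 FPKM in milestone cultivars, at -0.91 (limma adjusted p = 0.0207), and missed the threshold in a rank-sum test (adjusted p = 0.0555) and with relative depth as a covariate (limma adjusted p = 0.0658). IFS2 (Glyma.13G173500) was not called at -0.23 (limma adjusted p = 0.597).

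P1 (Glyma.09G278000), a locus for glabrous pubescence, that is, the loss of hairs from the plant surface, had the greatest difference of all listed genes on the log2 scale. It stood at 2.04, 10.05 and 28.2 FPKM as lowest, median and highest in elite parents, against 81.6, 549 and 1215 FPKM in milestone cultivars. Every milestone library was above every elite library, and the log2 difference was -5.63 (SE 0.27; limma adjusted p = 2.94e-22).

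Fatty acid desaturases, which set the number of double bonds in membrane and storage lipids, were mostly lower in elite parents too. Of 8 genes 6 passed the filter, of which 5 fell, 0 rose and 1 was not called, where 35.3% of all genes tested were called lower, with a median of -0.59. FAD2-1A passed through the milestone class, with an elite mean of 0.254 FPKM, so the filter bears on this count. FAD3C (Glyma.18G062000), a linoleate desaturase, had 17.0, 26.9 and 36.3 FPKM in elite parents, against 54.7, 75.6 and 118 FPKM in milestone cultivars. The classes did not overlap, and the log2 difference was -1.47 (SE 0.08; limma adjusted p = 3.54e-20). Its paralogues differed from it in size: FAD3A (Glyma.14G194300) fell by 0.76, with medians of 7.41 FPKM in elite parents and 12.9 FPKM in milestone cultivars, and FAD3B (Glyma.02G227200) was not called, at medians of 31.7 FPKM in elite parents and 34.1 FPKM in milestone cultivars (-0.14; limma adjusted p = 0.118), but passed without the window at -0.45 (limma adjusted p = 3.41e-04). The oleate desaturase FAD2-1A (Glyma.10G278000), known as a seed enzyme, was low in leaves, at medians of 0.246 FPKM in elite parents and 2.13 FPKM in milestone cultivars (log2 difference -1.33; limma adjusted p = 6.19e-11; no overlap). The stearoyl-ACP desaturases SACPD-A and SACPD-B fell by 0.43 and 0.38.

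**Figure D4:**
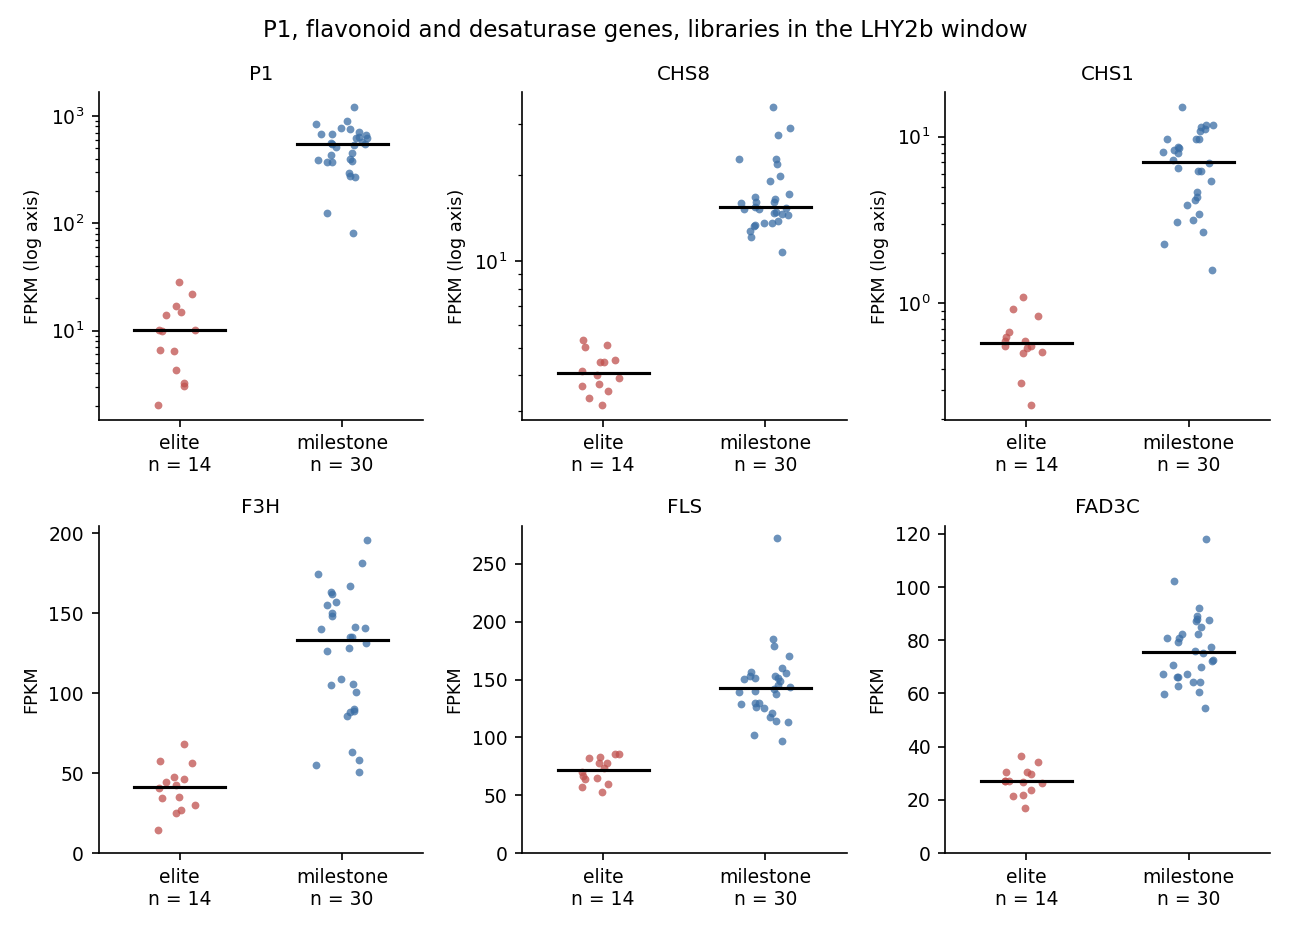
FPKM of P1, the flavonoid genes CHS8, CHS1, F3H and FLS, and the desaturase FAD3C in the LHY2b window, 1 point per library and a line at the median, with 14 elite parents left of 30 milestone cultivars; the upper row has log axes. Elite libraries lie under all milestone libraries in each panel except F3H, where the highest elite value of 68.4 FPKM overlaps the lowest milestone values.

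Chlorophyll genes were divided. G (Glyma.01G198500), a locus for green seed coat and seed dormancy, had 227, 296 and 431 FPKM in elite parents, against 77.2, 122 and 174 FPKM in milestone cultivars (log2 difference 1.26, SE 0.09; limma adjusted p = 3.8e-17). CHLI1a (Glyma.13G232500), a subunit of the magnesium chelatase of chlorophyll synthesis, had 385, 453 and 560 FPKM in elite parents, against 141, 248 and 367 FPKM in milestone cultivars (0.88, SE 0.10; limma adjusted p = 1.9e-10). Neither overlapped, while the paralogue CHLI1b (Glyma.15G080200) was not called, at medians of 164 and 155 FPKM in elite and milestone libraries. The stay-green gene D2 (Glyma.11G027400), whose protein helps dismantle chlorophyll, had 3.72, 4.50 and 8.12 FPKM in elite parents, against 7.56, 13.8 and 29.6 FPKM in milestone cultivars (-1.37, SE 0.13; limma adjusted p = 1.27e-12). Its partner D1 (Glyma.01G214600) fell by 0.31 (limma adjusted p = 0.00187), and without the window its difference was -0.04 (limma adjusted p = 0.768).

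Rubisco and its activase are the core of carbon fixation. Of 6 genes that passed the filter 0 rose, 2 fell and 4 were not called, where 33.7% of all genes tested were called higher and 35.3% lower; a share of 2 in 6 lower is near that of all genes. The Rubisco small subunit RBCS-13 (Glyma.13G046200) averaged 18611 ± 3602 FPKM in elite parents and 19750 ± 5777 FPKM in milestone cultivars (SD, n = 14 and 30), a log2 difference of -0.05 (limma adjusted p = 0.777). The activase Glyma.14G067000 had 298, 353 and 412 FPKM in elite parents, against 353, 480 and 634 FPKM in milestone cultivars, and fell by 0.41 (SE 0.07; limma adjusted p = 4.1e-06). Another activase, RCA-18 (Glyma.18G036400), was not called at -0.20 (limma adjusted p = 0.0996), but it passed without milestone library 60 (-0.23; limma adjusted p = 0.0456), after quantile normalization (-0.33; limma adjusted p = 1.8e-05), in the window of 100 to 400 FPKM (-0.28; limma adjusted p = 0.0153) and by rank sums (adjusted p = 0.0327). The activases RCA-02 (Glyma.02G249600) and RCA-11 (Glyma.11G221000) were not called at -0.08 and -0.05, and each passed under 1 alternative inside the window, RCA-02 by rank sums (adjusted p = 0.0173) and RCA-11 after quantile normalization (-0.18; limma adjusted p = 0.0127). Without the window all 4 activases were lower in elite parents, RCA-14 (Glyma.14G067000) at -1.25, RCA-11 at -1.19, RCA-18 at -1.16 and RCA-02 at -0.90 (limma adjusted p = 2.92e-06, 1.56e-04, 1.11e-05 and 3.6e-04), while RBCS-13 was not called at -0.27. A second small subunit gene, RBCS-19 (Glyma.19G046800), was at 1 FPKM or more in 2 of 14 elite and 15 of 30 milestone libraries and listed at 0 in the rest. Where it was above 0 it stood at 1222 FPKM or more, and a value of 0 beside such levels can be a failed estimate or reads given to a near-identical copy. Its log2 difference of -4.18 passed in limma (adjusted p = 0.0293) but missed the threshold by rank sums (adjusted p = 0.0522), and with relative depth as a covariate it was -0.92 (limma adjusted p = 0.663).

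Vegetative storage proteins, which hold nitrogen in leaves, gave calls that changed with the libraries included and with the processing. VspA (Glyma.07G014500) had 724, 1211 and 2264 FPKM in elite parents, against 236, 2080 and 4628 FPKM in milestone cultivars, a log2 difference of -0.58 (limma adjusted p = 0.048). The VspA call was lost in 9 of 19 alternatives. Without milestone library 54 or library 60 its limma adjusted p was 0.0567 or 0.0625. It was 0.071 after median-of-ratios scaling, 0.0734 without the filter and 0.108 in the window of 100 to 400 FPKM. VspB (Glyma.08G200100) had a median of 188 FPKM in elite parents and 87.1 FPKM in milestone cultivars, at 1.14 (limma adjusted p = 0.0192), and did not pass in a window of 200 to 300 FPKM (0.88; limma adjusted p = 0.124), with relative depth as a covariate (0.95; limma adjusted p = 0.0973) or without the window (0.60; limma adjusted p = 0.192).

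The genes of the rhg1 repeat, whose copy number gives resistance to soybean cyst nematode, did not separate the classes but split the elite parents. The alpha-SNAP gene (Glyma.18G022500) ran from 18.9 over a median of 25.9 to 273 FPKM in elite parents, against 17.3, 24.7 and 130 FPKM in milestone cultivars. A group of 5 elite libraries (NAM03, NAM05, NAM12, NAM13 and NAM15) stood at 214 to 273 FPKM, and the next elite value was 30.5 FPKM. In these 5 the amino acid transporter gene AAT (Glyma.18G022400) stood at 60.7 to 89.9 FPKM and the wound-inducible gene WI12 (Glyma.18G022700) at 89.8 to 179 FPKM, while no other elite library passed 5.33 and 12.6 FPKM. Of the milestone cultivars, library 17 was high in all 3 genes, at 130, 26.2 and 73.9 FPKM for alpha-SNAP, AAT and WI12. Libraries 48, 53 and 59 had alpha-SNAP at 59.4 to 64.8 FPKM, without a wide gap to the next milestone value of 46.9 FPKM. Their AAT stood at 9.1 to 10.4 FPKM and their WI12 at 24.4, 24.7 and 8.4 FPKM, against milestone medians of 4.88 and 13.4 FPKM. A level of 50 FPKM, set after the values were seen, was thus reached by 5 of 14 elite and 4 of 30 milestone libraries.

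The difference of class means at rhg1 therefore rests on a few libraries. The log2 differences were 0.87 for alpha-SNAP, 1.16 for AAT and 0.90 for WI12 (limma adjusted p = 0.0164, 0.00366 and 0.0431), and in rank-sum tests all 3 missed the threshold (adjusted p = 0.753, 0.265 and 0.226). The class medians of alpha-SNAP were close, as given above. Of the other genes tied to nematode resistance, the paralogue SNAP11 (Glyma.11G234500) fell by 0.44 (limma adjusted p = 0.0047), a call lost in the 200 to 300 FPKM window (limma adjusted p = 0.0644). Rhg4-SHMT, a serine hydroxymethyltransferase (Glyma.08G108900), the NSF partner of alpha-SNAP (Glyma.07G195900, which fell by 0.20 with relative depth as a covariate) and 2 further paralogues were not called, so that 3 of 8 genes tested rose, a share near that of all genes.

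**Figure D5:**
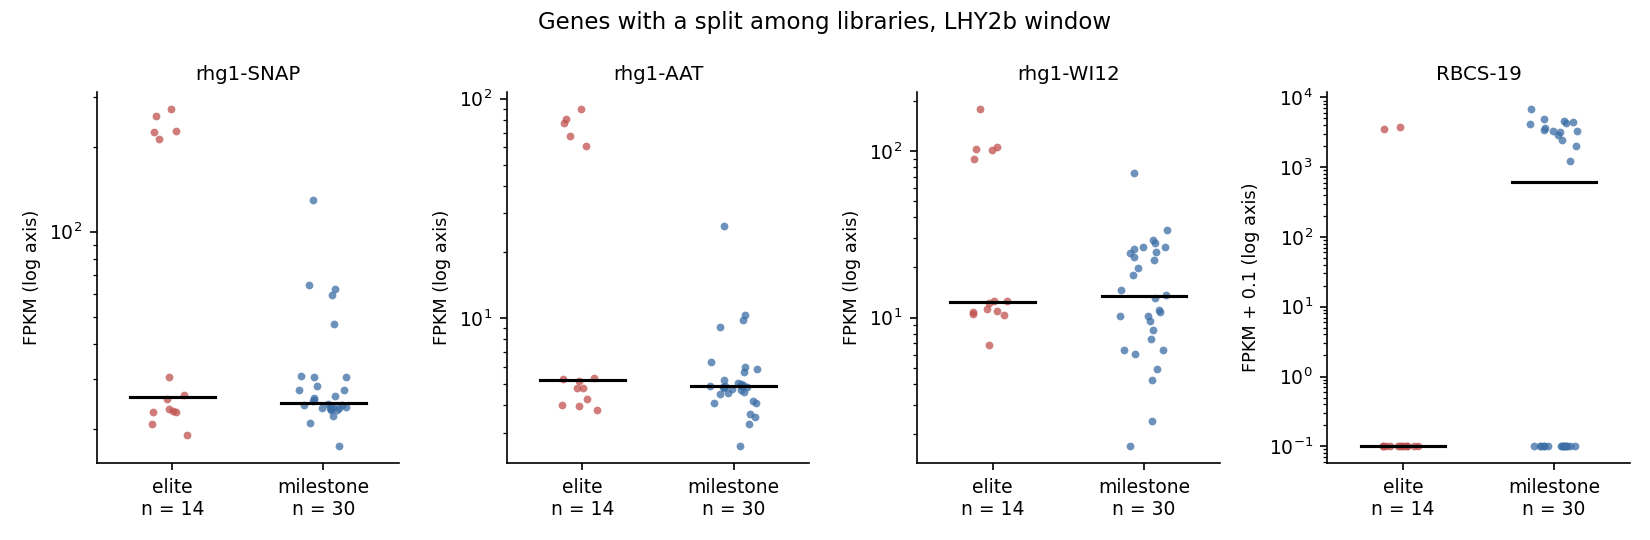
FPKM of 3 genes of the rhg1 repeat and of the Rubisco small subunit gene RBCS-19 in the LHY2b window, on log axes (0.1 FPKM added for RBCS-19), 1 point per library and a line at the median, with 14 elite parents left of 30 milestone cultivars. In each rhg1 panel 5 elite libraries form an upper group, and RBCS-19 is either at 1222 FPKM and more or listed at 0.

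Reference genes often used to scale soybean measurements were not all level. Of 8 such genes 3 rose, 2 fell and 3 were not called, shares near those of all genes. The cyclophilin CYP2 (Glyma.12G024700) had 179, 243 and 316 FPKM in elite parents, against 23.6, 100.9 and 250 FPKM in milestone cultivars (log2 difference 1.30; limma adjusted p = 2.82e-07). The elongation factor gene ELF1B (Glyma.02G276600) had 12.97, 15.7 and 20.04 FPKM in elite parents, against 19.6, 26.2 and 51.8 FPKM in milestone cultivars (-0.71; limma adjusted p = 5.7e-11). CONS7 and TUA5 were higher in elite parents, by 0.30 and 0.50 (limma adjusted p = 1.87e-04 and 2.13e-06). ACT11 was lower, at -0.25 (limma adjusted p = 1.64e-04). SKIP16 (Glyma.12G051100) stood at medians of 27.6 and 27.9 FPKM and CONS4 (Glyma.12G020500) at 24.97 and 25.97 FPKM in elite and milestone libraries, and neither was called (limma adjusted p = 0.617 and 0.256). UBI3 was not called at -0.05 but fell by 0.30 after quantile normalization. NARK (Glyma.12G040000), a receptor kinase that limits nodule number, had medians of 2.56 FPKM in elite parents and 1.28 FPKM in milestone cultivars, and rose by 0.63 (limma adjusted p = 4.49e-08).

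The greatest changes lay mostly outside the lists, in genes that the files do not name. The 12 greatest rises in elite parents spanned 3.17 to 4.37 on the log2 scale, 7 of them without overlap, and the 12 greatest falls spanned -5.08 to -8.35, all 12 without overlap. P1 was the 1 listed gene among these 24. Glyma.17G186400 stood at 5.58, 31.6 and 73.0 FPKM as lowest, median and highest in elite parents and was listed at 0 in 22 of 30 milestone libraries, the highest of which reached 42.7 FPKM. Glyma.19G102400 had 14.9, 26.4 and 57.5 FPKM in elite parents, against 0.0836, 1.17 and 3.75 FPKM in milestone cultivars. Among the falls, Glyma.15G239200 had 0, 0.0829 and 0.257 FPKM in elite parents, against 151, 330 and 837 FPKM in milestone cultivars. Glyma.15G239600 had 0.124, 2.57 and 10.4 FPKM in elite parents, against 145, 331 and 657 FPKM in milestone cultivars. Of the 12 falls, 5 carry IDs that share the digits 15G239, and whether these genes share reads was not tested.

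The other soyNAM parents offer a second comparison for the elite lines inside the same LHY2b window. The window held 13 LG lines, bred from diverse ancestors, and 6 PI lines, introduced from abroad, 19 in all. Their LHY2b median was 205 FPKM, against 260 FPKM in elite parents, so the match was looser than that between elite parents and milestone cultivars. By class, LHY2b had a median of 219 FPKM in LG lines (151 to 285) and 153 FPKM in PI lines (151 to 203). The lowest elite value was 189 FPKM, above the PI median. Of 28353 genes tested 8.55% were called, 1247 higher and 1177 lower in LG and PI lines than in elite parents, with a median size of 0.09 on the log2 scale and 15 genes past a fold of 2. These comparisons share the elite libraries. For 6 of the genes above, picked after their values were seen, the medians were as follows: P1 stood at 13.8 FPKM in LG and PI lines and 10.05 FPKM in elite parents, and in the same order CHS8 stood at 3.57 and 4.07 FPKM, FAD3C at 31.6 and 26.9 FPKM, G at 269 and 296 FPKM, FT2a at 6.64 and 6.29 FPKM and FT5a at 1.35 and 2.45 FPKM. None of these 6 was called (limma adjusted p between 0.124 and 0.991), which does not show that their levels were alike.

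Of the listed genes, 8 were higher and 5 lower in LG and PI lines than in elite parents. LHY1a, LHY2a, COL1a, COL1b and Dt2 were the lower ones, at -0.28, -0.34, -0.32, -0.25 and -0.44 on the log2 scale (limma adjusted p = 0.028, 0.0287, 0.0237, 0.0417 and 0.0278). The higher ones were TOC1b, TOC1c, TOC1d, ELF3b-1, ELF3b-2, PHYA1, TUA5 and UBI3, between 0.15 and 0.33. In rank-sum tests LHY2a, COL1a, COL1b, TOC1b, ELF3b-1 and UBI3 missed the threshold (adjusted p between 0.0516 and 0.0874). TOC1b also missed it with a pseudocount of 0.1 FPKM (limma adjusted p = 0.0522). LHY2b was lower in the LG and PI lines as well, at the medians given above. With LHY2b as a covariate, an alternative chosen after the data were seen, 15 genes in all were called, 6 higher and 9 lower, and the differences of LHY2a, LHY1a, COL1a and COL1b were 0.01, -0.01, -0.06 and -0.04. Dt2, ELF3b-1 and TUA5 also shrank and were no longer called, at -0.22, 0.06 and 0.14 (limma adjusted p = 0.591, 0.695 and 0.374). Without the covariate they had stood at -0.44, 0.15 and 0.21. Nearer their size, though no longer called, were TOC1b at 0.26, TOC1d at 0.30, UBI3 at 0.27, ELF3b-2 at 0.18 and PHYA1 at 0.14 (limma adjusted p between 0.22 and 0.397). TOC1c alone of the 8 higher and 5 lower genes kept its call with this covariate. Over all 4 alternatives its difference ran from 0.19 to 0.27 and its call was kept. Elite parents and milestone cultivars, fitted with the same covariate, differed in 20974 genes, against 20650 without it. Their mean LHY2b was already close in the window, at 262 and 277 FPKM, so this covariate could remove little. The part of clock state in their differences was not tested.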

How the data were processed

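The authors' deposited FPKM per gene, for 56044 gene IDs, was made with Trimmomatic 0.32, STAR 2.4.1c and Cufflinks 2.2.1, per the submitters' processing notes; the genome build, annotation, read filters and use of strand are not given in the sources used here. No counts are given and absolute depth is unknown, so no counting interval or floor is given, and reads of antisense or overlapping genes cannot be told apart. An exact 0 can be a failed estimate. Whole reads were not recovered. Relative depth was estimated from the commonest ratio of low values between each of 946 pairs of libraries. That ratio held a median of 2.5% of the low genes of a pair (1% to 12.9%), so the estimate is rough. Of the pairs, 88.7% lay within 0.05 (log2) of the depths, which were fitted from these same pairs.

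Numbered columns were taken as milestone cultivars and columns NAM02 to NAM23 with Parent as elite. Columns NAM24 to NAM39 were taken as LG lines and NAM40 to NAM64 as PI lines, and 0 columns were unused. Values were analysed as log2(FPKM + 1), which understates changes of low genes, with limma 3.58.1 (R 4.3.3, with the data.table package, version 1.17.8; 2-sided, mean trend, Benjamini-Hochberg over all genes tested, threshold 0.05), for genes that averaged 1 FPKM or more in the fitted libraries. Library measures had 2-sided permutation tests with 100000 resamples. The code was tested on simulated data. The window, the gene lists and the comparisons were chosen with earlier results of these data known. Named were all listed genes that bear on a comparison and, of the 12 greatest rises and falls, at most 2 unnamed IDs each way, because 0 IDs could be matched to a gene name. Alternatives covered pseudocount, filter, scaling, window, covariates, test and left-out libraries; relative depth as a covariate, leaving out libraries 54 and 60, and LHY2b as a covariate for LG and PI lines were chosen after seeing the data.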

Additional observations from a re-analysis of the deposited data

How the results depend on the processing

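A change of sign counted as a reversal only where the gene was called in at least 1 of the fits compared. Genes called in neither could change sign and still count as kept. Dt2 in elite parents against milestone cultivars, for example, ran from -0.21 to 0.21 over the alternatives. Against the reported values, single genes kept their call without such a reversal in 2154 of 2230 recomputed values. In the rest, 45 calls were lost, 22 were gained and 9 values were reversed. Of these, 8 reversed without the LHY2b window: LHY1a -0.81, LHY1b -0.60, LHY2a -0.80, TOC1a 0.013, TOC1b 0.061, TOC1d 0.40, CRY1c -0.16 and CRY1d -0.60. The ninth was LHY2a in LG and PI lines against elite parents, 0.010 with LHY2b as a covariate. The cause was not tested. The share of genes called ran from 50.1% without a filter to 71.4% with rank-sum tests. A mean of at least 5 FPKM left fewer genes to test and gave 11569 calls (6052 higher, 5517 lower), 1170 lower at 2-fold or more and 932 lower without overlap. Pseudocounts of 0.1 and 0.01 FPKM gave 3531 and 3656 genes lower at 2-fold or more, and 0.01 FPKM gave 2068 higher. Genes without overlap numbered 1729 higher and 2649 lower in a window of 200 to 300 FPKM, which kept 10 elite and 18 milestone libraries, and 119 and 596 without a window. For LG and PI lines against elite parents, rank-sum tests called 778 genes lower, and LHY2b as a covariate left 15 (6 higher, 9 lower). Without a window, summed FPKM and the share of the 50 highest genes changed sign, to -8238 (permutation p = 0.677) and -0.66 percentage points (permutation p = 0.35). No paired analysis was possible because each accession has 1 library and the numbers of the columns pair no elite parent with a milestone cultivar. With read counts not given, the counting error of a single value cannot be stated, which bears most on low genes.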
